A study of Saccharomyces cerevisiae with 6 samples.

Results

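Yeast mitochondria keep a small genome of their own, and the subject here is the RNA made from it. The members are the 10 genes of a list of symbols: 8 that code for proteins (COX1, COX2, COX3, COB, ATP6, ATP8, OLI1 and VAR1) and the ribosomal RNAs 15S_RRNA and 21S_RRNA. All 10 are among the 5113 genes of the deposited unfiltered table and 5 of them (15S_RRNA, 21S_RRNA, COX1, COB and OLI1) are among the 5028 genes of the filtered one. The list uses no measured value.

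The cells were wild-type BY4741, a haploid laboratory strain of Saccharomyces cerevisiae of mating type a with the markers his3Δ1 leu2Δ0 met15Δ0 ura3Δ0. In the NoSucrose group (3 libraries), exponential cultures grown on 2% sucrose were filtered and moved for 16 min to medium with 2% glycerol and 2% ethanol. In the Sucrose group (3 libraries), cultures in 2% sucrose were pelleted without filtration, so that handling changed together with the carbon source and their effects cannot be told apart. RNA was selected on oligo(dT) beads, libraries kept the strand, and the comparison asks how the transcriptome differed shortly after withdrawal of a fermentable sugar. By the study's methods, the 3 libraries of a condition are biological replicates.

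The filtered table held 26313145 to 31231626 estimated counts per NoSucrose library and 25106494 to 33651822 per Sucrose library. LEU2, MET17 (MET15) and URA3 had 0 counts in all 6 libraries, where up to 3 counts per library could have been missed, HIS3 had 1164 to 3414 counts (its allele is a partial deletion), the a-cell genes MFA1, MFA2, STE2 and BAR1 had 1039 or more, and the alpha-cell genes MF(ALPHA)1, MF(ALPHA)2 and STE3 had 5 to 18, 0 to 5 and 174 to 264 counts.

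As background, the mitochondrial genome is read by its own RNA polymerase, Rpo41, with the promoter factor Mtf1, from a short conserved promoter. Long precursors are then cut into the RNAs of several genes, and introns are removed from COX1, COB and 21S_RRNA, some of them with maturases that the introns themselves encode. Unlike nuclear mRNAs, the mRNAs of yeast mitochondria end at an encoded dodecamer and carry no poly(A) tail. Apart from VAR1, whose product belongs to the mitochondrial ribosome, they code for the cores of respiratory complexes III and IV and the proton channel of the ATP synthase, which the cell needs to live on glycerol and ethanol, and every other part of those complexes comes from the nucleus.

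In RefSeq's sequence and annotation of build R64, which the deposited tables also use, the mitochondrial genome has 85779 bases, of which 82.9% are A or T. All 10 members lie on its plus strand. COX1 (Q0045) spans mitochondrion:13818-26701 in 8 exons with 7 introns, COB (Q0105) 36540-43647 in 6 exons, and 21S_RRNA (Q0158) 58009-62447 in 2 exons around 1 intron. The others have 1 exon each: 15S_RRNA (Q0020) at 6546-8194, ATP8 (Q0080) at 27666-27812, ATP6 (Q0085) at 28487-29266, OLI1 (Q0130) at 46723-46953, VAR1 (Q0140) at 48901-50097, COX2 (Q0250) at 73758-74513 and COX3 (Q0275) at 79213-80022.

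The promoter letters are shown because they separate the members by transcription unit. The nonanucleotide ATATAAGTA was searched on both strands in the 700 bases before each annotated start. It occurred on the coding strand of 4 of the 10 members and on the other strand of 0. In the 30-base runs that follow, written 5′ to 3′ with the nonanucleotide in capitals, it ended 75 bases before 15S_RRNA, directly before the first base of 21S_RRNA, 460 bases before COX1, and 643 and 565 bases before OLI1.
15S_RRNA, mitochondrion:6452-6481: atttattattATATAAGTAataaataatag
21S_RRNA, mitochondrion:57990-58019: attattatatATATAAGTAgtaaaaagtag
COX1, mitochondrion:13339-13368: ataagtattgATATAAGTAatagatataat
OLI1 far, mitochondrion:46061-46090: attaatattaATATAAGTAatatatatagt
OLI1 near, mitochondrion:46139-46168: atacacatttATATAAGTAtatatatatat

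For COB the nearest copy lay farther off, 1653 bases before the coding sequence, where the unit also holds a tRNA gene, and for ATP8 and ATP6 it was the COX1 copy, 14308 and 15129 bases away.
COB, mitochondrion:34868-34897: aagaaatattATATAAGTAatatataaaaa
The nonanucleotide occurred on either strand in 10.7% of the 122 consecutive 700-base windows of the mitochondrial genome and in 2.28% of the 700-base windows before 6002 nuclear coding genes. The nearest copies before VAR1, COX2 and COX3 lay 2743, 8365 and 13820 bases away. All 4 members that could be tested in the RNA data (15S_RRNA, 21S_RRNA, COX1 and OLI1) are the 4 with a copy in the window. This depends on the length chosen for the window, since the copies of OLI1 lay 643 and 565 bases away. A link between these copies and the recovered RNA was not tested. A match is only a description of letters, and no match says only that these letters are absent from that window.

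The letters after the genes are shown because they mark where the mRNAs end without a poly(A) tail. The 12-letter word AATAATATTCTT was the one found after the largest number of mRNA members, in the 700 bases behind 6 of the 8, on the coding strand each time; the window behind ATP8 reaches into ATP6 and held no copy, nor did the window behind OLI1, whose precursor also holds VAR1. It began 62 to 100 bases behind COX1, ATP6, COX2, COX3 and COB and 579 bases behind VAR1, and stands in capitals here.
COX1, mitochondrion:26761-26790: taatataatAATAATATTCTTataaaaata
ATP6, mitochondrion:29344-29373: cccccttttAATAATATTCTTttatctaat
COB, mitochondrion:43736-43765: taatactttAATAATATTCTTaaaaataat
VAR1, mitochondrion:50668-50697: aataaataaAATAATATTCTTaatttttat
COX2, mitochondrion:74567-74596: aataattatAATAATATTCTTaaatataat
COX3, mitochondrion:80114-80143: tattattatAATAATATTCTTacaaatata
The same word occurred, on either strand, in 9.02% of the mitochondrial windows of that length and in 0.2% of the 700-base windows behind nuclear coding genes. Because the word was picked from the members' own windows, these shares are descriptions and no test of its place behind them. The mitochondrial genome holds 9 copies on the plus strand and 2 on the other, and the members' copies are among them.

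The members took a very small part of these libraries in both conditions. Together, the 5 in the filtered table had 27.2, 33.3 and 33.4 counts of every 1000000 in NoSucrose replicates 1 to 3, against 25.9, 31.7 and 38.5 in Sucrose replicates 1 to 3. Means were 31.3 ± 3.55 counts of every 1000000 in NoSucrose and 32.0 ± 6.32 in Sucrose (SD, n = 3 each), so the groups overlapped and their means lay within the spread between libraries. The ribosomal RNAs made up 22.3 of these in NoSucrose and 23.9 in Sucrose, and the mRNAs 9.06 in NoSucrose and 8.15 in Sucrose. In a bulk culture, fewer cells that carry the mitochondrial genome and less mitochondrial RNA per cell cannot be told apart.

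The large ribosomal RNA, 21S_RRNA, took the most counts of the members. It had 471, 577 and 621 counts in the NoSucrose libraries, against 417, 673 and 749 in the Sucrose libraries. Scaled by normalised library size (counts per 1000000, CPM), these were 17.3, 21.1 and 18.7 CPM in NoSucrose and 17.2, 20.8 and 25.3 CPM in Sucrose. The ranges overlapped nearly in full and only Sucrose replicate 3 stood above all NoSucrose libraries. The mean was 19.0 ± 1.92 CPM in NoSucrose and 21.1 ± 4.04 CPM in Sucrose, a log2 fold change of -0.15 ± 0.14 (standard error), which edgeR's quasi-likelihood test did not separate from 0 (Benjamini-Hochberg adjusted p = 0.333).

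Among the tested members, 15S_RRNA, the RNA of the small ribosomal subunit, was measured with the largest error. It had 32.0, 71 and 113 counts in NoSucrose, against 78, 95 and 150 in Sucrose, or 1.18, 2.59 and 3.40 CPM in NoSucrose and 3.23, 2.93 and 5.07 CPM in Sucrose. NoSucrose replicate 1 was lowest of the 6 and Sucrose replicate 3 highest, while the groups overlapped between 2.93 and 3.40 CPM. The mean of 2.39 ± 1.13 CPM in NoSucrose against 3.74 ± 1.16 CPM in Sucrose gave a log2 fold change of -0.63 ± 0.37 (edgeR adjusted p = 0.147). Both the call and the size of the change rested on single libraries. Without NoSucrose replicate 3 the log2 fold change was -0.98 with an edgeR adjusted p of 0.0434. Without NoSucrose replicate 1, the lowest library, it was -0.31 (edgeR adjusted p = 0.333), and without Sucrose replicate 3 it was -0.34 (edgeR adjusted p = 0.448). Both ribosomal RNAs are needed in equal numbers in the mitochondrial ribosome. The exons of 21S_RRNA add up to 3296 bases and 15S_RRNA has 1649, so equal numbers of molecules would not give equal counts. The counts of 21S_RRNA over 15S_RRNA were 14.7, 8.13 and 5.50 in NoSucrose replicates 1 to 3 and 5.35, 7.08 and 4.99 in Sucrose replicates 1 to 3, so that this ratio varied more among the NoSucrose libraries than between the group means of 9.45 ± 4.75 and 5.81 ± 1.12.

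COX1, the catalytic subunit of cytochrome c oxidase (complex IV), took the most counts of the mRNA members. Its counts were 180, 204 and 261 in NoSucrose, against 118, 233 and 238 in Sucrose. In CPM this was 6.61, 7.46 and 7.85 in NoSucrose and 4.88, 7.19 and 8.04 in Sucrose, where Sucrose replicate 1 was the one low library and the groups otherwise coincided. The mean was 7.30 ± 0.63 CPM in NoSucrose and 6.70 ± 1.64 CPM in Sucrose, a log2 fold change of 0.12 ± 0.18 (edgeR adjusted p = 0.567). The sign rests on that low library: without Sucrose replicate 1 the log2 fold change was -0.06.

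OLI1 codes for the subunit that forms the rotating ring of the ATP synthase. It had 33, 35 and 42 counts in NoSucrose and 31, 53 and 51 in Sucrose, or 1.21, 1.28 and 1.26 CPM in NoSucrose and 1.28, 1.64 and 1.72 CPM in Sucrose. The NoSucrose libraries lay very close together and all were below the Sucrose libraries, although the nearest pair both round to 1.28 CPM. At 33 to 42 counts per library, counting error alone is larger than the spread of the NoSucrose values, so their closeness does not measure precision. The mean of 1.25 ± 0.035 CPM in NoSucrose, against 1.55 ± 0.23 CPM in Sucrose, corresponded to a log2 fold change of -0.31 ± 0.19 (edgeR adjusted p = 0.163). OLI1 was the 1 tested member whose groups did not overlap, which was also so for 84.8% of all tested genes.

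COB, the cytochrome b of complex III, was close to the floor of the data. Its estimated counts were 1, 6.07 and 7.63 in NoSucrose and 4.61, 13.5 and 1.97 in Sucrose, which is 0.165 ± 0.112 CPM in NoSucrose and 0.235 ± 0.184 CPM in Sucrose. The groups overlapped throughout, COB was below the filter on low counts, and it was not tested. Its exons add up to 1158 bases, and 65.3% of these are shared with the intron reading frames BI2, BI3 and BI4.

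**Figure D1:**
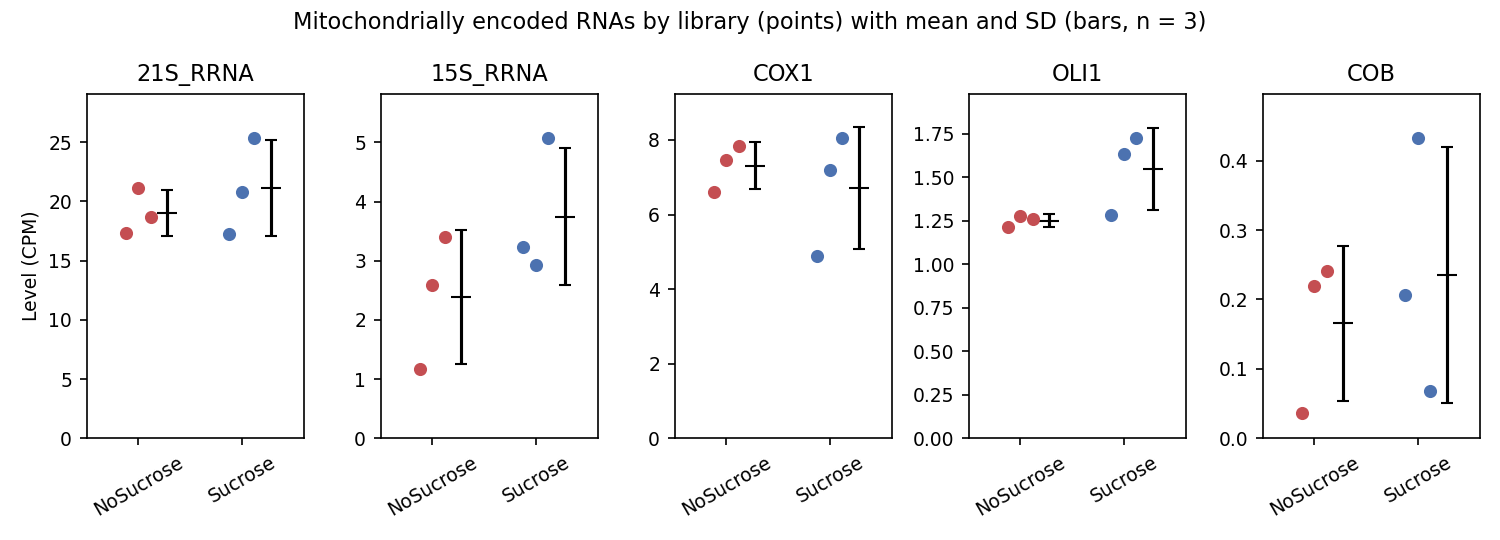
Levels in CPM (y axes, each from 0) of the 5 members in the filtered table, with 1 point for each NoSucrose library (left) and Sucrose library (right) in the order of the replicate numbers and a bar for the mean and SD of 3 libraries. The points of the groups overlap in every panel except that of OLI1. There all NoSucrose points lie below the Sucrose points, with the nearest pair both rounding to 1.28 CPM. For 15S_RRNA, NoSucrose replicate 1, at 1.18 CPM, is the lowest of the 6.

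The other 5 members were found only in the unfiltered table, whose column names do not identify the libraries, so they are given over all 6 libraries without groups. ATP8, a small subunit of the ATP synthase channel, had 0 counts in every library, which allows up to 3 counts in each. ATP6, the channel's subunit a, had 2 to 6 counts per library and 21 in all. COX2 and COX3, which complete the core of complex IV, had 1 to 5 and 1 to 7 counts, 18 and 22 in all. VAR1, a protein of the small mitochondrial ribosomal subunit, had 3 to 9 counts and 42 in all, against 1233 for COX1, 245 for OLI1 and 34.8 for COB over the same 6 libraries. The conditions were not compared for any of these 5.

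None of the 4 tested members passed an adjusted p below 0.05 in edgeR's quasi-likelihood test, while 82.0% of the 5011 genes tested did: 42.2% were higher and 39.8% lower in NoSucrose. With a fold above 2 required as well, 18.7% of all genes passed, 12.7% higher and 6.03% lower, and again 0 members. Scaling by library size alone raised the median over all genes by 0.11 on the log2 scale and moved the split past a fold of 2 to 733 higher and 201 lower, against 635 higher and 302 lower under the TMM scaling used throughout. At an unadjusted p below 0.05 the count of members was also 0, and DESeq2's Wald test gave 0 by either p. The median log2 fold change of the 4 members was -0.23, with 3 of the 4 negative, against a median of 0.03 and a median absolute value of 0.45 over all tested genes.

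The members were measured less precisely than most genes, and this bears on how that count reads. Their standard errors were 0.14 to 0.37 on the log2 scale, against a median of 0.058 for all tested genes. Among the 465 other genes with a mean count in the members' range (40.8 to 585 per library), the median standard error was 0.108, and 73.1% had an adjusted p below 0.05. Within that range these genes were not matched to single members, and OLI1 (40.8) and 15S_RRNA (89.8) lay near its lower end. The 95% intervals of the members' folds, NoSucrose over Sucrose, were 0.36 to 1.17 for 15S_RRNA, 0.72 to 1.13 for 21S_RRNA, 0.81 to 1.45 for COX1 and 0.59 to 1.10 for OLI1. A 2-fold rise thus lay outside all 4 intervals, and a fall to less than 0.5 of the Sucrose level lay outside the intervals of 21S_RRNA, COX1 and OLI1 but not of 15S_RRNA.

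The reading frames inside introns gave a second set of values from the same precursors. AI1, AI2, AI3, AI4 and AI5_ALPHA are read in frame with the upstream exons of COX1 and code for maturases or endonucleases of its introns. They share 972 bases, 60.6% of the COX1 exons, with it, and Salmon, which made the counts, divides reads that fit several features. Every COX1 value was fractional, as were 3 of 6 values of 21S_RRNA and 51.6% of all values in the filtered table. AI5_BETA shares no bases with COX1, and neither does SCEI, the homing endonuclease of the 21S_RRNA intron, with the exons of 21S_RRNA. The log2 fold changes were 0.17 ± 0.32 for AI1, 0.24 ± 0.35 for AI2, 0.35 ± 0.28 for AI4, -0.39 ± 0.23 for AI5_ALPHA, -0.06 ± 0.19 for AI5_BETA and -0.19 ± 0.20 for SCEI, with 3 higher and 3 lower and 0 of 6 past the edgeR threshold, or past an unadjusted p of 0.05 in edgeR or in DESeq2.

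Per length, SCEI stood near the ribosomal RNA whose intron it lies in. It had 113, 127 and 171 counts in NoSucrose and 94, 169 and 199 in Sucrose. Per kilobase of annotated sequence this was 6.56 ± 0.70 CPM in NoSucrose and 7.45 ± 2.00 CPM in Sucrose, beside 5.77 ± 0.58 CPM in NoSucrose and 6.40 ± 1.23 CPM in Sucrose per kilobase of the 21S_RRNA exons. AI1, AI2, AI4 and AI5_ALPHA, which overlap COX1, had 0.305 to 0.721 CPM per kilobase in NoSucrose and 0.266 to 0.839 in Sucrose, and AI5_BETA had 2.86 in NoSucrose and 2.98 in Sucrose. Reads of shared exons were divided among features, and the part of this in the lower values was not tested.

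**Figure D2:**
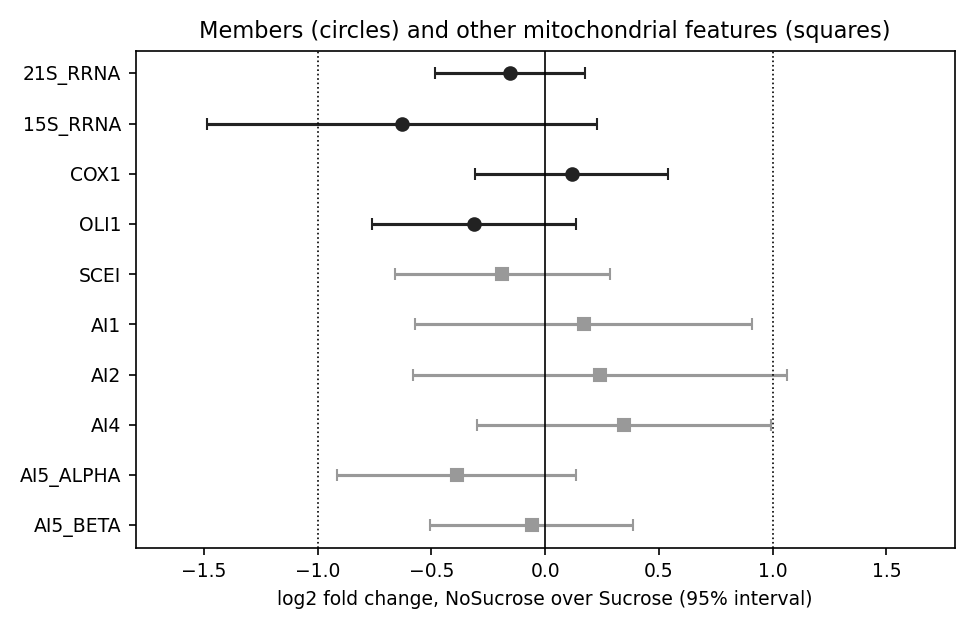
Log2 fold changes, NoSucrose over Sucrose (x axis), with 95% intervals from the edgeR fit for the 4 tested members (circles) and 6 other features of the mitochondrial genome (squares); dotted lines mark a fold of 2 in each direction. All 10 intervals include 0, and the widest of a member, that of 15S_RRNA, runs from -1.49 to 0.23.

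Per kilobase of exon, the order of the members did not match their order in counts. OLI1 had 5.42 ± 0.15 CPM per kilobase in NoSucrose and 6.70 ± 1.01 in Sucrose, and COX1 had 4.55 ± 0.39 in NoSucrose and 4.18 ± 1.02 in Sucrose. In NoSucrose 21S_RRNA, OLI1 and COX1 followed each other in that order and in Sucrose OLI1 came before 21S_RRNA, with 21S_RRNA and OLI1 apart by less than 1 SD of 21S_RRNA in both conditions. Below them came 15S_RRNA with 1.45 ± 0.68 CPM per kilobase in NoSucrose and 2.27 ± 0.70 in Sucrose, and COB with 0.143 ± 0.097 in NoSucrose and 0.203 ± 0.159 in Sucrose. The length used for OLI1 is its 231 coding bases, without untranslated parts. Its SD in NoSucrose comes from 33 to 42 counts per library and is smaller than counting error alone.

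These levels were low beside the nuclear genes whose products join the same complexes. The 9 nuclear subunits of complex IV had a median of 268 CPM per kilobase (173 to 362) in NoSucrose and 259 (65.2 to 365) in Sucrose, and the 13 nuclear subunits of the ATP synthase had medians of 351 in NoSucrose and 415 in Sucrose. Over the 4980 nuclear coding genes that passed the filter on low counts, the median was 55.1 CPM per kilobase in NoSucrose and 49.5 in Sucrose. Of these genes, 2.91% in NoSucrose and 4.24% in Sucrose lay below COX1, and genes under the filter were not counted. Since the libraries were selected for poly(A), the values give the RNA recovered by that selection and not the abundance of the members in the cell.

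**Figure D3:**
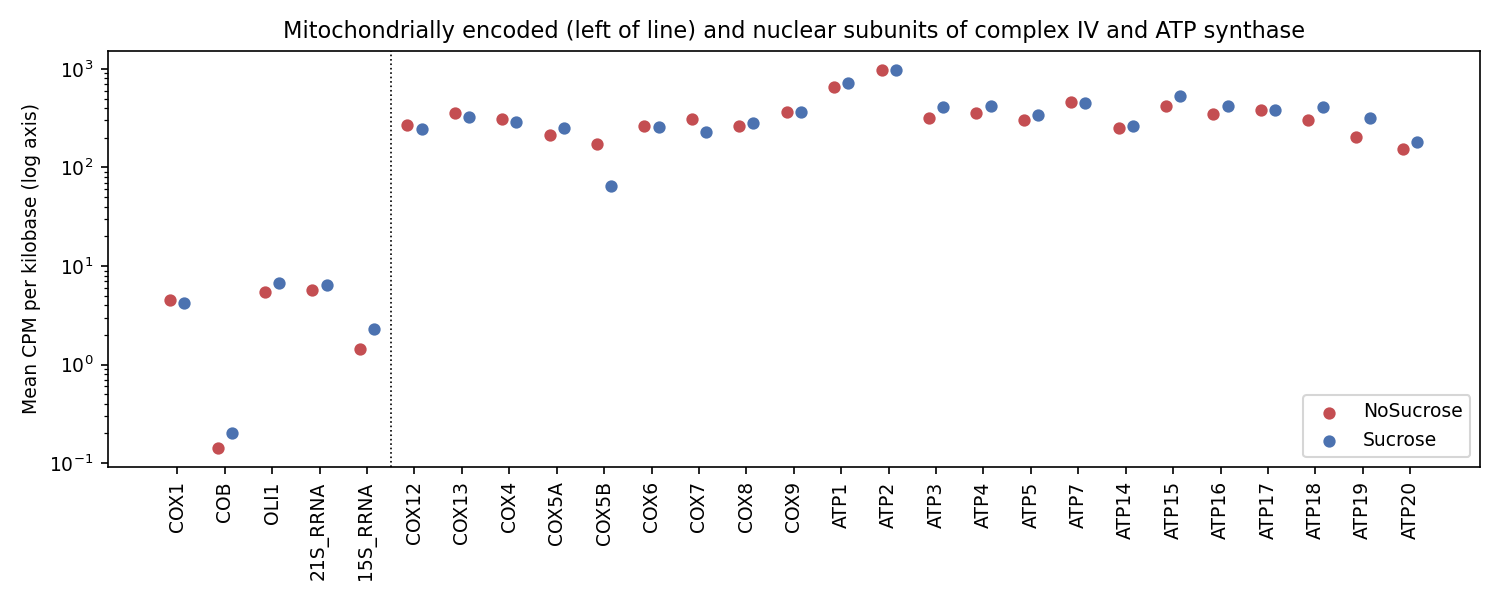
Mean level in CPM per kilobase of exon or coding sequence (y axis, logarithmic) in NoSucrose (left point of each pair) and Sucrose (right point) for 5 mitochondrially encoded RNAs, left of the dotted line, and for nuclear subunits of complex IV and the ATP synthase. The mitochondrially encoded RNAs lie between 0.143 and 6.70, below every nuclear subunit plotted, of which COX5B in Sucrose is the lowest at 65.2.

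Runs of A in the annotated sequence, to which oligo(dT) can bind, differed among the members and did not order them by level. For the mRNAs only coding bases were searched, so runs in untranslated parts are not counted. The longest run was 10 bases in 21S_RRNA, 9 in VAR1, 6 in COX1, COX2 and 15S_RRNA, 5 in ATP6, 4 in COX3 and COB and 3 in OLI1 and ATP8. OLI1, whose coding bases hold no run above 3, had nearly the same level per kilobase as 21S_RRNA, with the longest run. VAR1 with its 9 had 3 to 9 counts per library. AT content was 66.7% in OLI1, 70.1% in COX1 and 89.6% in VAR1, against a median of 60.2% in the tested nuclear coding genes. Of these genes, 14.96% hold a run of 8 or more A. These are descriptions over few RNAs of the same libraries, and the part of such runs in the levels was not tested.

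Next to the members stand the nuclear genes that serve them, beginning with the proteins dedicated to single mRNAs. Translational activators are imported proteins that each act on 1 mitochondrial mRNA or a few, and the list here also holds factors that stabilise single mRNAs. Of 20 tested, 15 rose, 0 fell and 5 did not pass the edgeR test at an adjusted p of 0.05, with a median log2 fold change of 0.31. With a fold above 2 as well, 3 of the 20 rose: PET494, AEP3 and CBS2. Of all tested genes, 42.2% rose and 39.8% fell at that adjusted p, and 12.7% rose and 6.03% fell past a fold of 2. The counts of the lists that follow are to be read beside the same shares.

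Set beside its own mRNA, each group of activators read as follows. For COX1, PET309 had a log2 fold change of -0.04 ± 0.05 (edgeR adjusted p = 0.517) while MSS51, which couples COX1 synthesis to assembly, rose by 0.46 ± 0.04. PET111, the activator of COX2, rose by 0.43 ± 0.06, and all 3 activators of COX3 rose, PET494 most, to 96.7 ± 6.81 CPM in NoSucrose against 35.6 ± 1.22 CPM in Sucrose (log2 fold change 1.44 ± 0.06). For COB, CBS2, CBP3 and CBP6 rose (1.05, 0.70 and 0.94) and CBS1 (0.03) and CBP1 (0.04) did not pass. ATP22, for ATP6, rose by 0.77 ± 0.04 and SOV1, for VAR1, by 0.28 ± 0.04. AEP3, which was not grouped by target here, rose by 1.32 ± 0.09. For OLI1, AEP1 (0.12 ± 0.04) and ATP25 (0.34 ± 0.04) rose and AEP2 (0.09 ± 0.05) did not pass, and the call of AEP1 was lost with DESeq2 (adjusted p = 0.127). COX1 and OLI1 are the 2 of these targets that were tested, with log2 fold changes of 0.12 and -0.31 that did not pass.

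The next list holds the general translation factors and the proteins that insert the products into the inner membrane. Of 15 tested, 11 rose, 2 fell and 2 did not pass, with a median of 0.56. The highest was COX20, a chaperone of the COX2 product, at 74.8 ± 0.90 CPM in NoSucrose against 31.7 ± 0.42 CPM in Sucrose (log2 fold change 1.24 ± 0.04, edgeR adjusted p = 1.14e-07), and AIM23 (1.17), a mitochondrial initiation factor, and FMT1 (1.14), which formylates the initiator tRNA, rose more than 2-fold too. MDM38, a ribosome receptor of the inner membrane, fell by 0.32 ± 0.05 on the log2 scale and OXA1, the insertase, by 0.13 ± 0.04, a call that was lost when scaling by library size alone (edgeR adjusted p = 0.743).

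Genes of mitochondrial transcription and DNA maintenance were divided. RPO41, the mitochondrial RNA polymerase, rose to 164 ± 10.3 CPM in NoSucrose against 112 ± 3.03 CPM in Sucrose (log2 fold change 0.55 ± 0.06), and its partner MTF1 had 0.03 ± 0.08 and did not pass. Of the 13 genes of this list 5 rose, 6 fell and 2 did not pass, with a median of 0.02. HSP60, a chaperonin also found in the nucleoid, was highest at 0.58 ± 0.10. ILV5, an enzyme of branched-chain amino acid synthesis that also binds mitochondrial DNA, was lowest, with 544 ± 27.3 CPM in NoSucrose against 1942 ± 178 CPM in Sucrose (-1.83 ± 0.08), and was the only one past a fold of 2.

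RNA splicing, processing and decay were divided as well: of 19 genes tested, 9 rose, 7 fell and 3 did not pass, with a median of 0.11. The mitochondrial degradosome consists of the helicase SUV3 and the exonuclease DSS1, and SUV3 fell by 0.38 ± 0.05 on the log2 scale while DSS1 had 0.12 ± 0.04 and passed the edgeR test narrowly, but not DESeq2 (adjusted p = 0.138). PET127, which acts in 5′ end processing of mitochondrial RNAs, rose by 0.38 ± 0.03. Past a fold of 2, PET130 (1.16), a mitochondrial protein needed for respiratory growth, and RPM2 (1.10), the protein subunit of mitochondrial RNase P, rose, and NUC1 (-1.29), the main mitochondrial nuclease, TRZ1 (-1.01), the tRNA 3′ processing enzyme, and RNT1 (-1.10) fell. RNT1 is a ribonuclease of the nucleus, and TRZ1 acts in the nucleus as well as in mitochondria. Scaling by library size alone left TRZ1 at -0.89 and RNT1 at -0.99, both under a fold of 2, and gave 4 rises and 1 fall past it.

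The nuclear subunits of the complexes differed by complex. Of 9 subunits of complex III, which COB completes, 7 rose and 0 fell, with a median log2 fold change of 0.46 and the highest value for CYT1, cytochrome c1, at 0.61 ± 0.05. Of 9 subunits of complex IV, which COX1, COX2 and COX3 complete, 4 rose and 2 fell, with a median of 0.08, while scaling by library size alone gave 5 rises and 0 falls. Of the alternative forms of subunit 5, COX5B had 78.9 ± 4.34 CPM in NoSucrose against 29.7 ± 4.53 CPM in Sucrose (2.65-fold higher) and COX5A had 98.1 ± 6.03 CPM in NoSucrose against 115 ± 3.32 CPM in Sucrose (log2 fold change -0.23 ± 0.05), which library size alone turned to -0.12 without a call (edgeR adjusted p = 0.123). Of 13 subunits of the ATP synthase, which ATP6, ATP8 and OLI1 complete, 0 rose and 9 fell, with a median of -0.23 and the lowest value for ATP19 at -0.64 ± 0.06, while scaling by library size alone gave 5 falls.

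The regulators in the same list do not form part of the enzyme. INH1, which inhibits the ATP synthase when it runs backward, and STF1, which supports that inhibition, rose (0.21 and 1.54), and so did STF2, which was first described as another such factor, with 376 ± 25.6 CPM in NoSucrose against 39.1 ± 5.02 CPM in Sucrose. STF2 had the highest log2 fold change of any gene on these lists, 3.26 ± 0.10. Counting them, 14 of 34 genes in the list of nuclear subunits rose, 11 fell and 9 did not pass, with a median of 0.04, against 16 rises, 5 falls and a median of 0.15 when scaling by library size alone.

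The assembly factors of the same complexes mostly rose: 25 of 29 tested rose, 1 fell and 3 did not pass, with a median of 0.40. COX19, SCO1, SHY1 and CBP4 of these 29 passed a fold of 2, beside 12.7% of all tested genes that rose past it. COX19, which acts with copper in complex IV assembly, had 39.2 ± 2.04 CPM in NoSucrose against 14.9 ± 0.85 CPM in Sucrose and was 2.64-fold higher. SCO1 delivers copper to the COX2 product (log2 fold change 1.37), SHY1 acts in the assembly of the COX1 product (1.12) and CBP4 in that of cytochrome b (1.06). The one that fell, ATP23, a protease that matures the ATP6 product, did so by 0.35 ± 0.07 on the log2 scale.

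**Figure D4:**
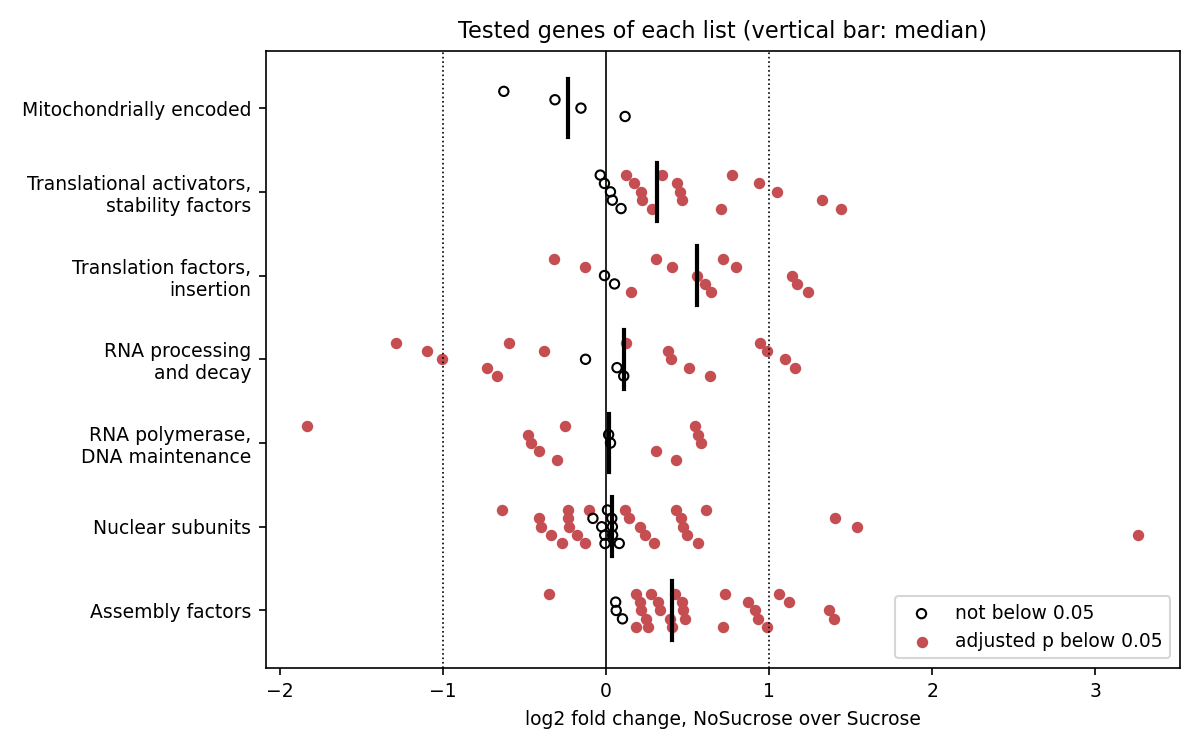
Log2 fold changes, NoSucrose over Sucrose (x axis), of the 4 tested members (top row) and of the tested nuclear genes of 6 lists; filled points had an edgeR adjusted p below 0.05, open points did not, thick bars are medians and dotted lines mark a fold of 2. The members' median is -0.23, and the medians of the lists run from 0.02 for RNA polymerase and DNA maintenance to 0.56 for translation factors.

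Of 137 names on the 6 lists, 7 were not tested under the name listed. RefSeq's synonyms for build R64 placed 4 of them at tested genes (CCM1, QRI5, TIM11 and FMP25, with log2 fold changes of 0.07, 0.14, -0.06 and 0.10), and 0 of these passed. The lists were drawn up by function, but with results of these data known, so their counts are descriptions to be read beside the shares of all genes given above.

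The genes whose profile over the 6 libraries lay nearest to the mean profile of COX1 and OLI1, by the root mean square difference of log2 CPM centred per gene, were PRM9 (0.073), PAU12 (0.077), CHO1 (0.079), DAD2 (0.080) and PUP1 (0.086). Their log2 fold changes ran from -0.11 for PRM9 to 0.02 for PAU12. In each of them Sucrose replicate 1 was the lowest of the 6 libraries and Sucrose replicate 3 the highest, as in COX1 and in the mean profile. The genes were picked for nearness to that profile, so this is not a separate observation. In OLI1 alone NoSucrose replicate 1 was the lowest.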

How the data were processed

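Poly(A)-selected, strand-specific RNA-seq of 6 libraries was used. By the study's methods, the authors trimmed reads with Flexbar 3.5 (minimum 18 nt, quality 30) and quantified them with Salmon 1.4.0 on the R64 transcriptome; the deposited values are estimated counts per gene, without normalisation, and genes that share exons share reads. Gene names stand beside the wrong rows of the filtered file, so each row's gene was found by matching its 6 values to the unfiltered table (5028 of 5028 rows); headers of the unfiltered table contradict those of the filtered one, and its 6 columns were therefore given no sample. A 0 was given a floor of 3 counts in every library, whatever its total (25106494 to 33651822 counts). Counting error, not biological error, is covered by that floor.

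Counts were rounded. The main test was edgeR 4.0.16 (R 4.3.3): filterByExpr (minimum count 15, minimum total 20; 5011 genes), TMM scaling and the quasi-likelihood test of NoSucrose against Sucrose, with Benjamini-Hochberg adjustment over all tested genes; calls needed an adjusted p below 0.05, and a fold above 2 where stated. CPM are on TMM-scaled libraries. Values per kilobase use spliced annotated length. Alternatives were DESeq2 1.42.0, other scalings and filters, a replicate block, exclusion of each library and sums over overlapping features. Members and gene lists were chosen with earlier results of these data known. Genes were named by rule: all members; in each list the largest and smallest change and those past a fold of 2; a few regulators; the 5 nearest profiles. Other genes of the lists that are named, the activators grouped by target and the subunits grouped by complex, were chosen after their values were seen.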

Additional observations from a re-analysis of the deposited data

Results flagged for a closer look

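Several features of the mitochondrial genome had signal that the comparison of conditions could not use, above the 3 counts that a 0 would allow. In the unfiltered table, over 6 libraries with no group, the highest library had 5 counts of COX2, 7 of COX3, 6 of ATP6, 9 of VAR1, 3.04 of AI3, 5.40 of BI2 and 6.03 of BI4. COB, which is in the filtered table but below the filter on low counts, reached 13.5 counts in Sucrose replicate 2. No group had enough libraries for a search for single outlying values.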

How the results depend on the processing

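The count of members past an adjusted p of 0.05 and a fold of 2 was 0 under every alternative run, and 937 genes were called, with 853 to 1020 when 1 library was left out. Without the fold requirement 4107 genes passed, and of the nuclear lists 11 (RNA polymerase and DNA maintenance), 15 (activators), 16 (RNA processing), 13 (translation), 25 (subunits) and 26 (assembly). Scaling by library size alone gave 7 assembly factors past a fold of 2, brought TRZ1 (-0.89) and RNT1 (-0.99) under it and turned AI5_BETA to 0.058 and PET309 to 0.079 on the log2 scale. Leaving out each library in turn, log2 fold changes ran from -0.98 to -0.31 for 15S_RRNA (-0.98, adjusted p = 0.0434 in edgeR, without NoSucrose replicate 3), -0.057 to 0.26 for COX1, -0.093 to 0.50 for AI1, -0.16 to 0.49 for AI2, -0.21 to 0.033 for AI5_BETA, -0.36 to 0.022 for SCEI and -0.012 to 0.094 for MTF1. The cause of these shifts was not tested. DSS1, AEP1 and OXA1 lost their call in some alternatives, and without 1 library CBS2 (0.96) and TRZ1 (-0.94) came under a fold of 2.

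Same-numbered libraries did not deviate together (r = -0.14, -0.002 and 0.04), and differently numbered ones had r from -0.33 to 0.27. With 3 libraries in a group these values cannot decide whether the numbers pair them. A replicate block gave 933 genes and 0 members called, with 15S_RRNA at -0.67 (edgeR adjusted p = 0.0571). With no filter COB had -0.50 ± 0.76 (edgeR adjusted p = 0.555). Counts summed with intron reading frames gave 0.06 for COX1 and -0.16 for 21S_RRNA; the sum for COB was not run, since BI2, BI3 and BI4 have no library assignment, and AI3 was left out of the COX1 sum. Low counts limit COB and the 5 members with under 10 counts per library.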
